A study of Mus musculus with 5 samples.

Results

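The 7 genes described here, Hmgcs1, Idi1, Fdps, Fdft1, Sqle, Lss and Cyp51, encode enzymes of cholesterol synthesis. They were chosen by name, 7 of the 31053 genes counted, and their transcripts were followed in hepatocytes of 5 single-cell libraries. None of them takes up cholesterol, so the genes of uptake are given further on as a separate list. Liver cells of C57BL/6J mice had been released by perfusion in 2 steps, cleared of dead cells and made into libraries with the 10x v3 kit, which tags each captured RNA molecule with a unique molecular identifier (UMI). There was 1 library for each group. One came from mice at postnatal day 14 (P14), one from an adult control, and 3 from adults 24, 48 or 96 h after partial hepatectomy (PHx), an operation that takes away most of the liver and was done at 8 weeks of age. The treatment text counts the control library among the operated ones, whereas its title and source name call it a control, and it was treated as one here. The labels give neither the sex of the mice nor the number of animals behind a library, and no sham-operated group is listed.

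A barcode was taken as a hepatocyte when it held at least 5000 UMIs, 10 to 30% of them from mitochondrial genes, and at least 1% of them from Alb, Apoa1 and Ttr, which encode the abundant secreted proteins albumin, apolipoprotein A1 and transthyretin. This rule kept 2106 cells of P14 and 925 of the adult control, with 1170, 719 and 771 cells from the 24, 48 and 96 h libraries. A cell with at least 1 UMI of Mki67 or Top2a, genes transcribed mainly in dividing cells, is called dividing below, and any other cell non-dividing. Levels are counts summed over the cells of a group and scaled to counts per 1000000 non-mitochondrial UMIs (CPM). Bracketed ranges are exact 95% intervals that cover counting error only. With 1 library per group the spread between mice was not measured, and no test between groups was possible.

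Cholesterol is built from acetyl-CoA. HMG-CoA synthase (Hmgcs1) acts on the way to mevalonate, isopentenyl diphosphate isomerase (Idi1) and farnesyl diphosphate synthase (Fdps) assemble the isoprenoid farnesyl diphosphate, and squalene synthase (Fdft1), squalene epoxidase (Sqle), lanosterol synthase (Lss) and lanosterol demethylase (Cyp51) carry it into the sterol branch. The liver is a main site of this synthesis. When membranes of the endoplasmic reticulum are poor in sterol, SCAP escorts the transcription factor SREBP2, the product of Srebf2, to the Golgi, where it is cut and released to the nucleus. It then acts on sterol regulatory elements near the genes of synthesis. INSIG proteins hold SCAP back when sterols are plentiful.

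Promoter sequences are shown because the 7 genes are known as targets of one regulator. RefSeq windows of 250 bases before to 50 bases after the annotated start, in build GRCm38.p6, were at hand for 4 of the 7 genes: Hmgcs1 (chr13:119690101-119690400, plus strand), Idi1 (chr13:8885356-8885655, plus strand), Lss (chr10:76531355-76531654, plus strand) and Cyp51 (chr5:4104648-4104947, minus strand). The windows read 5′ to 3′ along the gene. Capitals mark TCACNCCAC, a form of the sterol regulatory element, and CCAAT, the box bound by NF-Y, on either strand (CCAAT appears as ATTGG where it lies on the other strand).
Hmgcs1: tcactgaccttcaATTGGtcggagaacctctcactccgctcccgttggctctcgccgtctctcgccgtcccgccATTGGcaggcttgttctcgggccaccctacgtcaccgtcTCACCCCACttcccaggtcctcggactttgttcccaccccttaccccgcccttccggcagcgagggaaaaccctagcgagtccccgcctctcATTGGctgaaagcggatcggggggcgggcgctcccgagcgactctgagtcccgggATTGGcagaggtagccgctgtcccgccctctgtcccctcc
Idi1: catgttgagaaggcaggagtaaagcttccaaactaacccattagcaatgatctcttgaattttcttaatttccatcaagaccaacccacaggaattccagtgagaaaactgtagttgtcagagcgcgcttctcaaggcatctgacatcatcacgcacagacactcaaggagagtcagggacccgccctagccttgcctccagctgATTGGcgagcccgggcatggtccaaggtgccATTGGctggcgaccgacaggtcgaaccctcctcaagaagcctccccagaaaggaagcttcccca
Lss: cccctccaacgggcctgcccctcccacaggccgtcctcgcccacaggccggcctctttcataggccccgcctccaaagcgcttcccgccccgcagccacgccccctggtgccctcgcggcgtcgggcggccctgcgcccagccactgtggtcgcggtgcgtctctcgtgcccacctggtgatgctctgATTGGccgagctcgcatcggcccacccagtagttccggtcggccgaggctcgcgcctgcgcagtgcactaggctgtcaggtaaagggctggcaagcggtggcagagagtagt
Cyp51: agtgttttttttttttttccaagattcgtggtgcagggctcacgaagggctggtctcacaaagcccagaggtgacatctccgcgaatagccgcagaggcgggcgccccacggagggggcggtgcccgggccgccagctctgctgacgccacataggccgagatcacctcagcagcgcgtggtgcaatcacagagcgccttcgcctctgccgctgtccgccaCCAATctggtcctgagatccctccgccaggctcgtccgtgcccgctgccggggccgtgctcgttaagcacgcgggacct
TCACNCCAC was found in the Hmgcs1 window only, where it began 137 bases before the start, and 1.24% of 32851 windows of the same length in the table hold it. CCAAT was in all 4 windows, against 37.4% of all windows. Hmgcs1 held 4 copies and Idi1 held 2, and 11.7% of all windows held at least 2. The GC box GGGCGG was also in all 4, on either strand, against 35.7% of all windows. A match is a run of letters and was not tested as a binding site. Other forms of the sterol regulatory element were not searched for, so a window without TCACNCCAC may still hold one.

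The hepatocytes held 13316829 to 64576753 non-mitochondrial UMIs per library, with median totals per cell between 18527 UMIs (control) and 38922.5 UMIs (P14). All 12 hepatocyte markers had UMIs in every library, but the median share of Alb, Apoa1 and Ttr was 11.2% in P14, 5.77% at 96 h and between 2.10% and 2.86% in the other 3. Median mitochondrial shares lay between 20.6% and 26.0%. Summed markers of T or NK, B, myeloid, endothelial, mesenchymal and bile duct cells and of neutrophils were at most 199 CPM per list, the highest being neutrophil markers at 48 h, against 51635 to 169132 CPM for hepatocyte markers, and erythroid markers stood at 165 to 778 CPM. Only 3 barcodes of 5688 occurred in 2 libraries. The P14 library stood apart: Xist, transcribed from the inactive X of females, was at 840 CPM there and at 0 or 1 UMI in the 4 adult libraries, whereas the Y-linked gene Ddx3y had 0 UMIs in P14 and 112 to 140 CPM in the adults. Age and sex therefore cannot be told apart in any comparison with P14. A code in the sample descriptions is L002 for the control and L001 for the other 4, so what the code records cannot be told apart from the control either. Dbp, a gene whose transcript cycles with the time of day, was at 152 CPM in the control and 9.07, 3.22 and 119 CPM at 24, 48 and 96 h after PHx (13.1 CPM in P14), and its part in the results below was not tested.

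In hepatocytes of the adult libraries every one of the 7 genes was higher at 24 h than in the control, and in P14 every one was lower than in any adult library. Summed over the 7 genes the level was 265 CPM (261 to 269) in P14, 1522 CPM (1501 to 1543) in the control, and 2786 (2762 to 2809), 2090.1 (2070.5 to 2110) and 2098 CPM (2074 to 2123) at 24, 48 and 96 h. The counting intervals of 48 h and 96 h overlapped, and those of the other libraries did not.

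**Figure D1:**
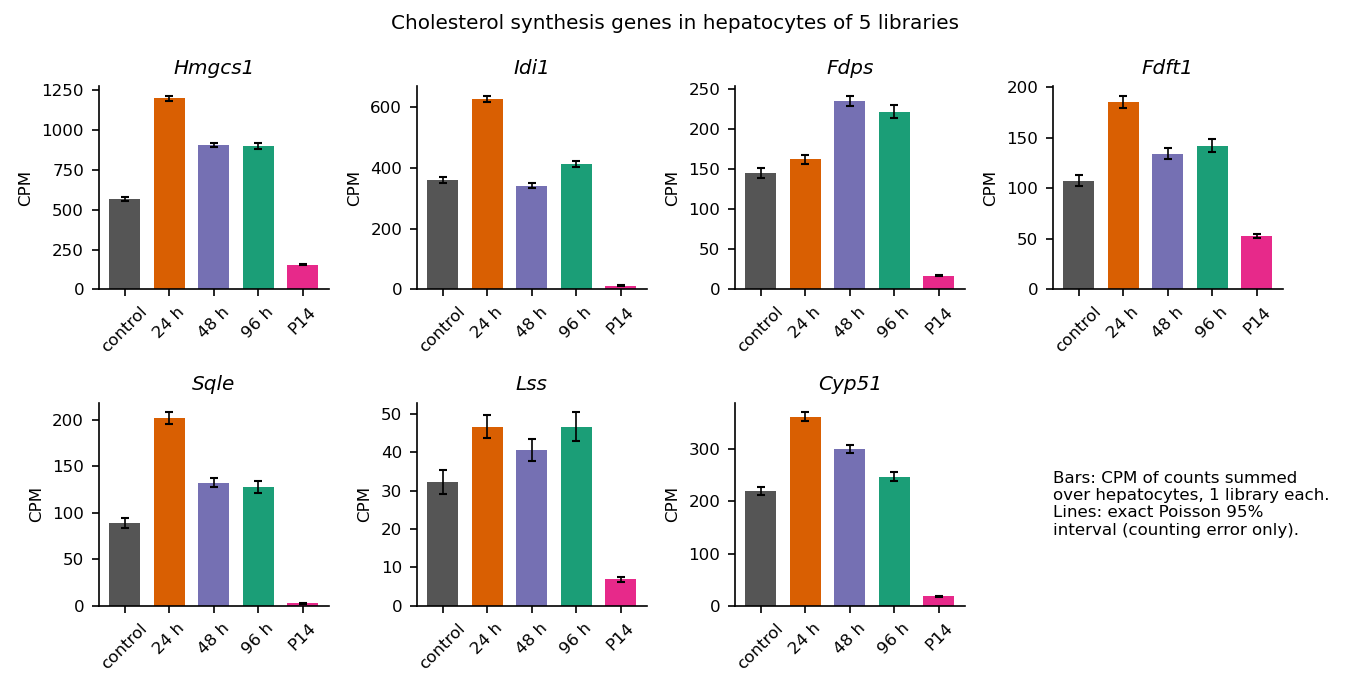
Level of each of the 7 genes (y axis, CPM, a separate linear scale from 0 for each gene) in hepatocytes of the adult control, 24 h, 48 h and 96 h after PHx, and P14 (x axis). Each bar is 1 library and the line on it is the exact 95% counting interval. The P14 bar is the lowest in every panel, and 24 h is the highest for Hmgcs1 (1201 CPM), Idi1 (627 CPM), Fdft1, Sqle and Cyp51.

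Hmgcs1 (ENSMUSG00000093930, chr13:119690379-119708260, plus strand in the GENCODE annotation of GRCm38), which condenses acetyl-CoA units toward mevalonate, stood at 154 CPM in P14, 569 in the control and 1201, 907 and 900.3 at 24, 48 and 96 h. The interval of 48 h overlapped that of 96 h, and the other neighbours in the order were apart. Idi1 (ENSMUSG00000058258, chr13:8885501-8892451, plus strand), which isomerizes the building block of isoprenoids, stood at 12.7 CPM in P14, 359 in the control and 627, 341 and 413 at 24, 48 and 96 h. It was higher at 24 h but close to the control at 48 h, where the 2 intervals overlapped. Its neighbours Idi2 and Gm9745 had 0 UMIs in every library. Fdps (ENSMUSG00000059743, chr3:89093588-89101959, minus strand), which makes farnesyl diphosphate, stood at 17.3 CPM in P14, 145 in the control and 162, 235 and 222 at 24, 48 and 96 h. Its levels at 48 h and 96 h, whose intervals overlapped, were above that at 24 h. Fdps was also the gene most abundant in free RNA relative to the cells: empty droplets held it at 473 CPM in the control and 648 CPM at 24 h, enough to account for 29.9% and 15.9% of its hepatocyte UMIs there.

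In the sterol branch, Fdft1 (ENSMUSG00000021273, chr14:63145150-63179578, minus strand), which joins farnesyl units into squalene, stood at 52.8 CPM in P14, 107 in the control and 185, 134 and 142 at 24, 48 and 96 h. The 48 h and 96 h intervals overlapped. Sqle (ENSMUSG00000022351, chr15:59315077-59331192, plus strand), which adds the oxygen and is a rate-limiting step of the branch, stood at 2.63 CPM in P14 (170 UMIs), 88.9 in the control and 202, 132 and 128 at 24, 48 and 96 h. Again 24 h was highest and 48 h and 96 h overlapped. Lss (ENSMUSG00000033105, chr10:76531588-76557138, plus strand), which closes the rings to lanosterol, stood at 6.92 CPM in P14, 32.2 in the control and 46.6, 40.5 and 46.7 at 24, 48 and 96 h. For this gene the 96 h interval overlapped those of both 24 h and 48 h. Cyp51 (ENSMUSG00000001467, chr5:4081145-4104746, minus strand), which demethylates lanosterol, stood at 18.4 CPM in P14, 220.1 in the control and 362, 299 and 247 at 24, 48 and 96 h. No neighbouring intervals overlapped, and the level stepped down from 24 h to 96 h.

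The next comparison asked how the genes stood during regeneration against the control. At 24 h, Sqle was 2.27-fold (2.13 to 2.42) and Hmgcs1 2.11-fold (2.06 to 2.166) above the control, Idi1 1.75-fold, Fdft1 1.73-fold, Cyp51 1.65-fold, Lss 1.45-fold and Fdps 1.12-fold. So 5 of 7 genes were at least 1.5-fold higher, beside 19.5% of the 5642 genes with at least 20 CPM in either library, and the median log2 ratio, computed on CPM + 1, was 0.78 against 0.02 over all those genes. At 48 h the median was 0.44 (all genes −0.10), with Fdps (1.62-fold) and Hmgcs1 (1.59-fold) past 1.5-fold, 2 of 7 beside 17.3% of all genes, and Idi1 at 0.951-fold (0.917 to 0.987). At 96 h it was 0.52 (all genes 0.04), with Hmgcs1 (1.58-fold) and Fdps (1.53-fold) past 1.5-fold, 2 of 7 beside 12.2%. These 3 comparisons share the control library. The 24 h count fell to 3 of 7, the 48 h count to 1 and the 96 h count to 0 when cells needed 3% of UMIs from Alb, Apoa1 and Ttr, which kept 144 cells at 24 h and 410 of the control. All genes gave 15.3%, 17.2% and 13.1% higher at that setting, so 1 of 7 at 48 h was near the share of all genes, and the medians of the 7 genes were 0.56, 0.27 and 0.28. The Fdps ratios to the control were larger with free RNA taken off, at log2 0.34, 1.03 and 0.87 for the 3 times.

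Between the operated libraries, 48 h stood below 24 h for 6 of 7 genes with a median log2 ratio of −0.40 (all genes −0.09). Idi1 was 1.84-fold lower (1.78 to 1.89) and Sqle 1.52-fold lower, 2 of 7 beside 8.32% of all genes, whereas Fdps was 1.45-fold higher (1.39 to 1.52). The count of lower genes was 1 of 7 with either other mitochondrial range, TMM scaling, means per cell, thinning or doublet removal, beside 7.35% to 11.3% of all genes. From 48 h to 96 h no gene moved by 1.5-fold. The ratios ran from a log2 of −0.28 for Cyp51 to 0.27 for Idi1, beside 15.5% of genes higher and 7.40% lower.

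The share of dividing cells differed between libraries, from 1.62% in the control (15 cells) and 28.0% in P14 to 30.8%, 55.6% and 17.6% at 24, 48 and 96 h. The comparison was therefore repeated in non-dividing cells. There the median log2 ratio over the control came to 0.90, 0.87 and 0.65 for 24, 48 and 96 h, with 6 of 7, 6 of 7 and 4 of 7 genes at least 1.5-fold higher, beside 16.5%, 10.8% and 10.3% of all genes. The medians over all genes were −0.0084, −0.23 and −0.0022. The 7-gene medians of 24 h and 48 h were thus close in non-dividing cells, while the median of all genes was lower at 48 h. Hmgcs1 was at 571 CPM in non-dividing control cells, 1310 CPM at 24 h, 1338 CPM at 48 h and 953 CPM at 96 h. Sqle was at 88.9, 224, 183 and 140.2 CPM in the same order. Idi1, at 359, 688, 512 and 439 CPM, was the gene below 1.5-fold at 48 h, at 1.43-fold (1.37 to 1.49).

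In P14 the 7 genes were far below the control. Sqle was 33.8-fold lower (28.7 to 39.9), Idi1 28.4-fold (26.3 to 30.6), Cyp51 11.9-fold, Fdps 8.41-fold, Lss 4.65-fold, Hmgcs1 3.70-fold (3.59 to 3.81) and Fdft1 2.03-fold (1.91 to 2.16). All 7 were past 1.5-fold, beside 36.6% of 5449 genes, and the median log2 ratio was −3.001 against −0.33 over all genes. TMM scaling, which centres the bulk of genes, shifted P14 ratios by a log2 of 0.29 before the 1 CPM was added. The median was −2.72 with it and stayed between −3.17 and −2.51 over the alternatives. In non-dividing cells alone it was −3.04, with all 7 lower beside 39.5% of genes. Sex, age and the highest share of Alb transcripts (104975 CPM in P14, 19565 to 58855 in the adults) all go with this library, and their parts cannot be told apart.

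Levels varied between cells of each library. Each cell was thinned to 5000 UMIs, mitochondrial ones included, so that totals were equal. The UMIs of the 7 genes were then summed per cell. Thinning does not even out mitochondrial shares or free RNA, which made up 6.92% of hepatocyte UMIs in the control and 0.770% at 48 h. The median cell held 1 such UMI in P14, 5 in the control and 10, 8 and 7 at 24, 48 and 96 h. Cells without any made up 37.7% of P14 and between 0.940% and 2.08% of each adult library. The SD over cells was 6.66 UMIs at 24 h around a mean of 11.3, where counting alone would give 3.36, and 1.101 in P14 around a mean of 1.04, where counting would give 1.02. The middle 80% of cells spanned 4 to 21 UMIs at 24 h and 2 to 11 in the control, so the 2 libraries overlapped widely cell by cell.

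**Figure D2:**
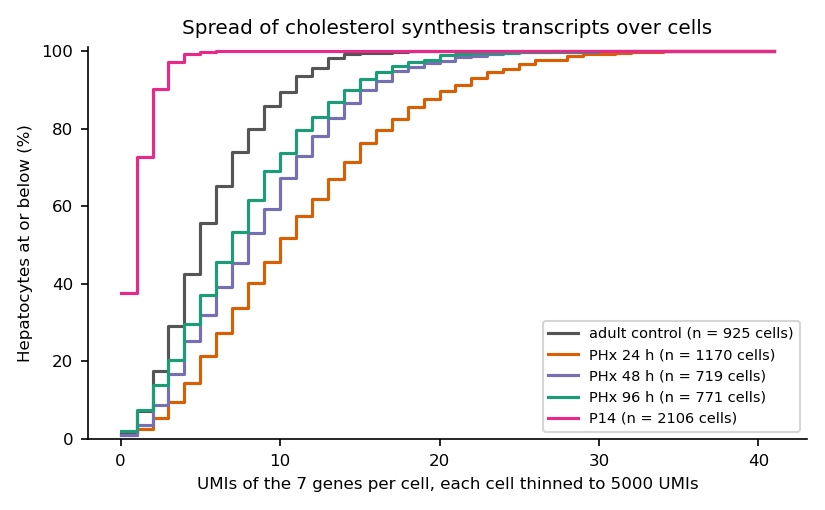
Cumulative share of hepatocytes (y axis, percent) by the number of UMIs of the 7 genes per cell after thinning to 5000 UMIs (x axis), 1 line per library. The P14 line lies far to the left with a median of 1 UMI, and the 24 h line lies farthest to the right with a median of 10 and a tail that reaches 41.

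Within each adult library, cells with more of one of these transcripts tended to hold more of the other 6 summed. Across the 1170 cells of 24 h, Pearson's r between one gene and the sum of the other 6, both as log2 (thinned count + 1), was 0.57 for Hmgcs1, 0.51 for Idi1, 0.36 for Cyp51, 0.31 for Fdft1, 0.22 for Sqle, 0.20 for Lss and 0.17 for Fdps, against a median of 0.00078 over all ranked genes. Hmgcs1 was at 0.49 at 48 h, 0.45 at 96 h and 0.29 in the control. In P14 no member passed 0.053, with means under 0.60 UMIs per cell. These are descriptions: the cells share a library, and a low count holds r down. The sum also leans on the abundant genes. At 24 h Hmgcs1 and Idi1 made up 4.88 and 2.60 of a mean of 11.3 UMIs per thinned cell. Of 3826 genes with at least 20 CPM in every library, the 10 most like the sum of the members (a member being left out of its own sum), by r averaged over the 5 libraries, were Hmgcs1 (0.37), Insig1 (0.21), Scd1 (0.21), Fdft1 (0.18), Gsta3, Akr1c6, Apcs, Rnase4, Car3 and Fabp1 (0.15). Idi1, Fdps, Sqle, Lss and Cyp51 were under 20 CPM in P14 and so were not ranked. Idi1 and Cyp51 averaged 0.34 and 0.22, above Insig1 and Scd1. Such averages hide differences between libraries. Insig1 was at 0.30, 0.40 and 0.31 at 24, 48 and 96 h, but at 0.038 in the control and 0.0064 in P14. Gsta3 and Car3 were below 0 in the control (−0.012 and −0.0062), and Apcs was below 0 in P14 (−0.043). Akr1c6 and Fabp1 stayed above 0 in every library, with lowest values of 0.068 and 0.078. Insig1 encodes a sterol sensor that retains SCAP, and Scd1 the desaturase of fatty acid synthesis. Over the 4 adult libraries and the 20 CPM minimum in those alone, a choice made after seeing the data, Hmgcs1 (0.45), Idi1 (0.42), Msmo1 (0.34), Cyp51 (0.27), Insig1 (0.26), Scd1 (0.26), Fdft1 (0.23), Apcs, Nsdhl and Car3 led, of which Msmo1 and Nsdhl remove the methyl groups of lanosterol after Cyp51.

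The other enzymes of the pathway, read from a list of 15 without the 7 members, were mostly higher at 24 h as well. At that time, 3 of the 5 other mevalonate and isoprenoid genes with at least 20 CPM and 5 of the 9 other sterol genes were at least 1.5-fold above the control and none lower, with median log2 ratios of 0.67 and 0.71, beside 19.5% of all genes higher. Acat2, which starts the pathway, was at 62.6, 109, 100.3 and 84.2 CPM from the control to 96 h. Msmo1 (log2 0.76 at 24 h), Hsd17b7 (0.92), Nsdhl (0.71) and Mvd (0.67) were higher at 24 h, whereas Sc5d was at −0.50 and Tm7sf2 at −0.29. The counts were 2 of 5 and 3 of 9 for 48 h and 1 of 5 and 2 of 9 for 96 h, with none lower. The list medians were 0.38 and 0.01 at 48 h and 0.42 and 0.23 at 96 h, so the other sterol genes centred near the control at 48 h. Msmo1 was then at 258 CPM against 256 CPM in the control, and Hsd17b7 at 76.8 against 86.7 CPM. All genes gave 17.3% and 12.2% higher at those times. In P14, 4 of 4 and 6 of 8 were at least 1.5-fold lower beside 36.6% of all genes, led by Nsdhl (log2 −4.13), Msmo1 (−3.72), Dhcr7 (−2.99) and Mvk (−2.22). Lbr, which encodes both a sterol reductase and a receptor of the nuclear lamina, was the sterol gene with the largest difference at 24 h and 48 h (1.78 and 1.56), and it was not low in P14 (0.42).

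**Figure D3:**
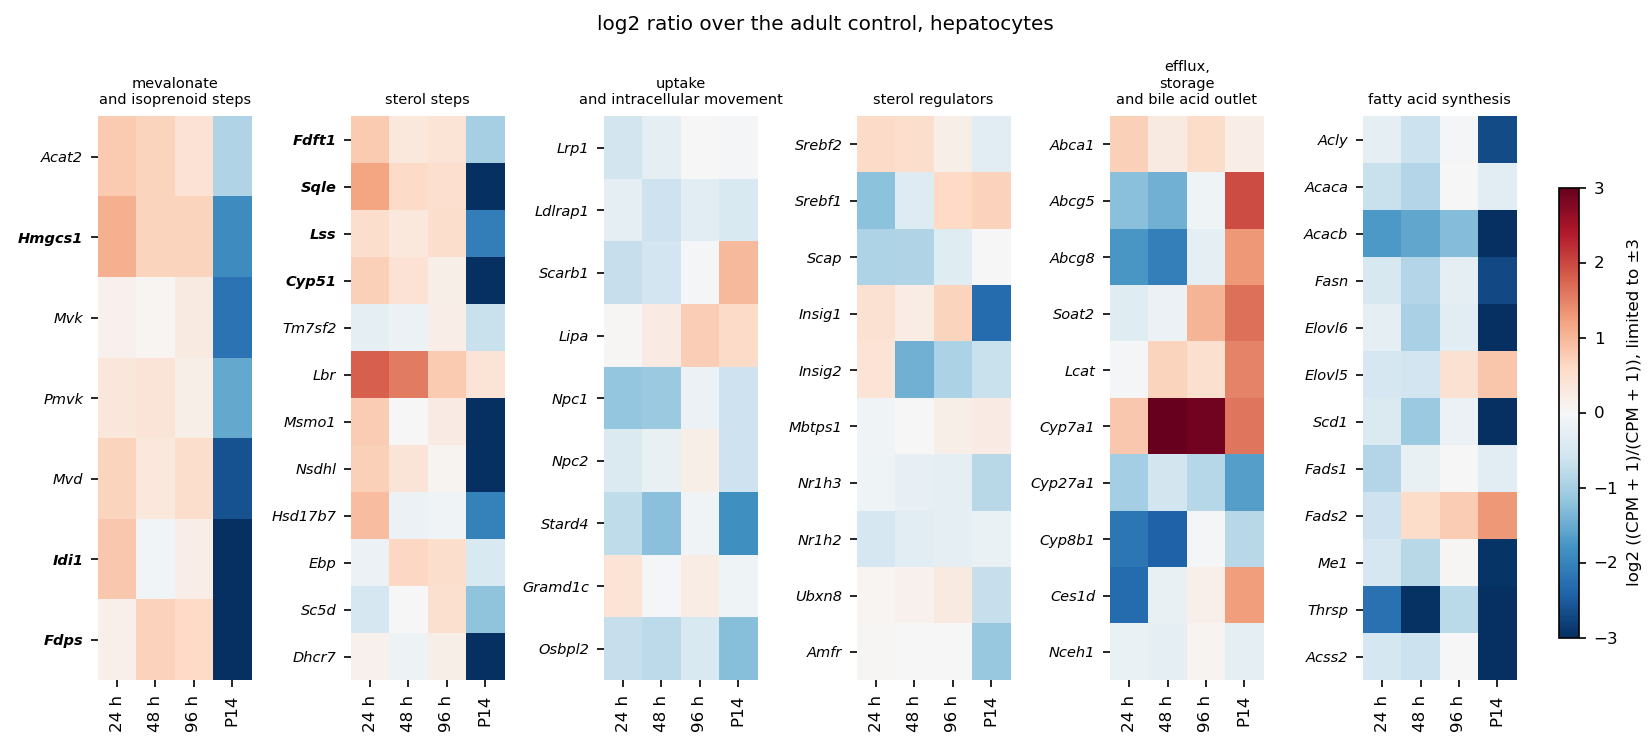
log2 ratio over the adult control (colour, on CPM + 1, limited to ±3) for 24 h, 48 h, 96 h and P14 (columns) in hepatocytes, for genes of 6 lists with at least 20 CPM in a library (rows), members in bold. Red is higher and blue lower than the control. The synthesis rows are mostly red at 24 h and blue in P14, while Abcg5, Abcg8 and Cyp7a1 are red in P14.

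Uptake genes were read as a list of their own, and a difference from the synthesis genes was not tested. Of 11 uptake and intracellular movement genes with at least 20 CPM, 1 was at least 1.5-fold higher and 4 lower at 24 h, 0 and 4 at 48 h, and 2 and 0 at 96 h, beside 19.5% of all genes higher and 18% lower at 24 h, 17.3% and 21.4% at 48 h, and 12.2% and 7.16% at 96 h. In P14, 2 of 11 were higher and 6 lower, with a median log2 of −0.62, beside 13.5% and 36.6%. Stard4, which carries cholesterol between membranes and is itself a sterol-responsive gene, was at 188, 111, 77.8 and 176 CPM from the control to 96 h and at 51.6 CPM in P14. It was therefore below the control at 24 h and 48 h, where Hmgcs1 and Sqle were above the control. At 96 h Stard4 was near the control, and Hmgcs1 (900.3 against 569 CPM) and Sqle (128 against 88.9 CPM) were again above it. Npc1, which exports cholesterol from lysosomes, was 2.27-fold lower at 24 h and 2.18-fold lower at 48 h, and Scarb1, the receptor for high-density lipoprotein, was one of those higher in P14, at 128 CPM against 65.2 CPM in the control.

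Among the sterol regulators, Srebf2 stood at 33.2 CPM in the control, 49.96, 48.0 and 37.5 at 24, 48 and 96 h and 26.4 in P14. Srebf1, whose product favours the genes of fatty acid synthesis, was at 77.9 CPM in the control, 32.4, 59.6 and 119 at 24, 48 and 96 h and 126 in P14. It was thus lowest at 24 h, where the sum of the 7 genes was highest, and highest in P14, where that sum was lowest. Insig1 was at 335, 458, 389 and 533 CPM from the control to 96 h and at 67.1 CPM in P14. Insig2 was at 353, 470.1, 128 and 181 CPM and at 222 CPM in P14. Scap was 1.92-fold lower at 24 h. Of the 10 regulators with at least 20 CPM, 1 was higher and 2 lower at 24 h, 0 and 2 at 48 h, 2 and 1 at 96 h, and 1 and 5 in P14. The shares of all genes higher and lower were 19.5% and 18% at 24 h, 17.3% and 21.4% at 48 h, 12.2% and 7.16% at 96 h, and 13.5% and 36.6% in P14.

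The outlets of cholesterol were also read as a list, and a difference from the synthesis genes was not tested. Cyp7a1, the rate-limiting enzyme of bile acid synthesis, stood at 22.2 CPM in the control, 39.7, 197 and 171 at 24, 48 and 96 h and 70.2 in P14. Abcg5 and Abcg8, the subunits of the pump that secretes sterols into bile, were at 25.1 and 46.6 CPM in the control, 9.99 and 13.3 at 24 h, 8.64 and 10.5 at 48 h, and 22.9 and 38.3 at 96 h. In P14 they were 4.03-fold and 2.51-fold above the control. The pump genes were therefore low at 24 h and 48 h and highest in P14. Cyp8b1, which sets the kind of bile acid made, was 4.59-fold lower at 24 h and 5.52-fold lower at 48 h, and Ces1d, a cholesteryl ester hydrolase, was 5.04-fold lower at 24 h. In this list 2 of 9 genes were higher and 5 lower at 24 h, beside 19.5% and 18% of all genes. At 48 h, 2 of 9 were higher and 3 lower, beside 17.3% and 21.4%, and at 96 h 2 of 10 and 1 of 10, beside 12.2% and 7.16%. In P14, 6 of 10 were higher and 2 lower, beside 13.5% and 36.6%.

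Within each operated library the 7 genes were lower in dividing than in non-dividing hepatocytes. At 24 h all 7 ratios were below 0, with a median log2 of −0.37 (all genes 0.04) and none past 1.5-fold, beside 0.349% of 5437 genes lower. The 24 h median shrank to −0.16 when cells needed 3% of UMIs from Alb, Apoa1 and Ttr, and to −0.21 with 10 to 20% mitochondrial UMIs, and Cyp51 changed sign under both (0.16 and 0.038). Hmgcs1 was at 1017 CPM in 360 dividing cells and 1310 CPM in 810 non-dividing cells, Lss at 36.8 and 52.4 CPM (1.42-fold lower, 1.23 to 1.65), and Fdps at 158 and 165 CPM, with overlapping intervals. At 48 h the median was −0.83 (all genes 0.16), and 6 of 7 genes were at least 1.5-fold lower, beside 1.47% of 5244 genes. Lss was 2.22-fold lower (1.93 to 2.55), at 28.1 against 62.3 CPM. Idi1 was 2.10-fold lower, at 244 against 512 CPM, and Hmgcs1 2.02-fold lower, at 661 against 1338 CPM. Sqle (1.78-fold), Fdft1 (1.71-fold) and Cyp51 (1.53-fold) followed, and Fdps was 1.24-fold lower. At 96 h the median was −0.47 (all genes 0.17), with Lss (1.87-fold), Sqle (1.74-fold) and Fdft1 (1.51-fold) past 1.5-fold, 3 of 7 beside 2.81% of 5655 genes, in 136 dividing cells. The 96 h count was 6 of 7 with TMM scaling (all genes 7.31%) and 0 of 7 with every cell thinned to 5000 UMIs (all genes 10.5%).

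**Figure D4:**
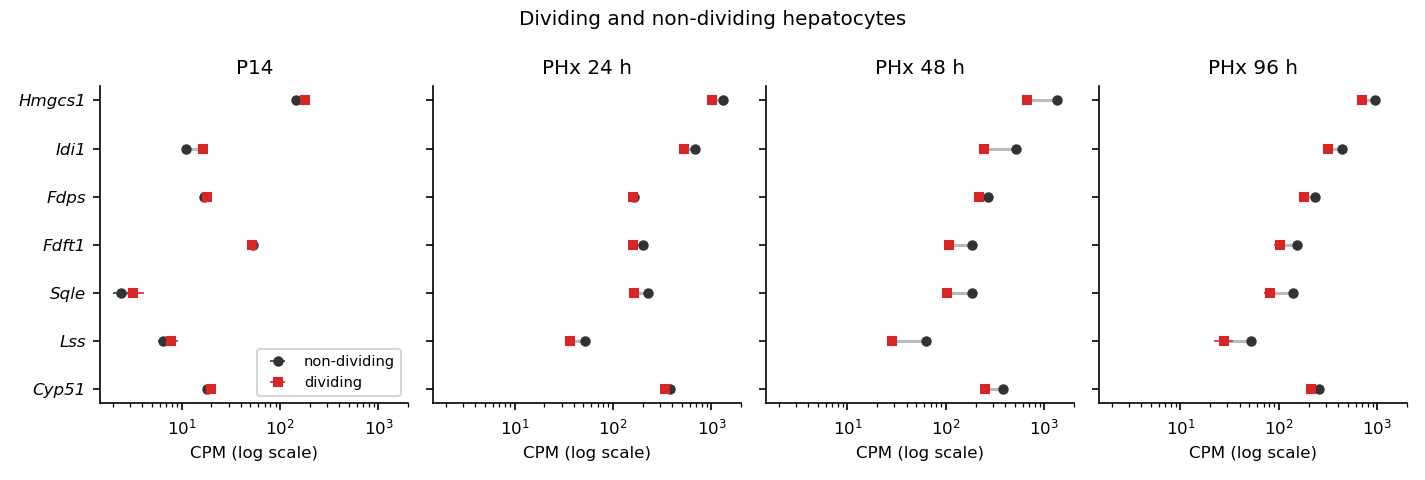
CPM (x axis, log scale) of each gene (rows) in dividing (red squares) and non-dividing (black circles) hepatocytes of P14 and of 24 h, 48 h and 96 h after PHx (panels), with exact 95% counting intervals as lines. The red squares lie to the left of the black circles for all 7 genes in the 3 operated libraries, farthest at 48 h for every gene but Fdps (96 h). In P14 they lie to the right or, for Fdft1 (−0.02), almost level.

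In P14 the ratios ran the other way or stood near 0, from −0.02 for Fdft1 to 0.51 for Idi1, with a median of 0.24 against 0.13 over all genes. Hmgcs1 was at 178 CPM in 589 dividing cells and 144 CPM in 1517 non-dividing cells. Only Hmgcs1 and Fdft1 reached 20 CPM there, none of the 7 was past 1.5-fold beside 5.74% of genes higher, and the median was −0.012 once levels were thinned to 5000 UMIs. Dividing cells were deeper after PHx, with median UMIs of 23732 for 24 h, 41820 for 48 h and 28114.5 for 96 h, where non-dividing cells had 18175.5, 30149 and 20858. In P14 the medians were 38903 and 38929. Summed erythroid markers (8 genes) were at 380 CPM in dividing and 80.02 CPM in non-dividing cells of P14, and at 611 and 274 CPM in those of 96 h, while at 24 h and 48 h they differed little (521 and 542, 779 and 776 CPM). Summed cholangiocyte markers (7 genes) were at 105 and 24.6 CPM in dividing and non-dividing cells of P14, 60.3 and 127 CPM in those of 24 h, 40.5 and 52.8 CPM at 48 h, and 61.9 and 222 CPM at 96 h. Of those 7 genes, 5 stood under 1 CPM in the hepatocytes of every library, so few genes carry the sum. The summed periportal genes of the zonation score, set out further on, were at 867 and 1313, 638 and 699.8, and 1137 and 2786 CPM for the 3 times. The part of these markers in the result was not tested. With levels thinned to 5000 UMIs and division called at full depth, the medians were −0.36, −0.84 and −0.48 for 24 h, 48 h and 96 h. With division itself called on thinned counts, which left 62 dividing cells at 96 h, the 96 h median was −0.071 and none of the 7 genes was past 1.5-fold, beside 10.5% of all genes lower. The control had 15 dividing cells, too few for a value under the minimum of 20.

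Of the other pathway genes with at least 20 CPM, dividing cells of 48 h were at least 1.5-fold lower for 1 of 5 mevalonate and isoprenoid genes, which was Mvd (log2 −1.15), and for 2 of 9 sterol genes, Msmo1 (−0.95) and Hsd17b7 (−0.73), beside the 1.47% of all genes given above. At 24 h the counts were 0 of 5 and 0 of 9 and at 96 h 2 of 5 and 2 of 9, beside 0.349% and 2.81% of all genes. Of 9 regulators at 48 h, 1 was lower (Insig1, −0.998) and 1 higher (Mbtps1, 0.67, which encodes a protease that cuts SREBP). Lbr was the 1 of 9 sterol genes past 1.5-fold in the other direction, with log2 ratios of 0.99, 1.30 and 1.26 after PHx in order of time, beside 6.77%, 12.4% and 12.4% of all genes higher, and it was at 1.39 in P14. In the same order Stard4 was at −0.16, −0.23 and −0.68, Srebf2 at −0.06, 0.00 and 0.03, and Srebf1 at 0.29, 0.32 and −0.48. The Srebf2 transcript stood near a log2 ratio of 0 at 24 h and 48 h, where the medians over all genes were 0.04 and 0.16. Hmgcs1 and Idi1 were lower in dividing cells at both times. Transcript levels do not show how much SREBP2 is cut, and its part was not tested.

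Position along the lobule was read from a score of periportal genes (Cyp2f2, Hal, Sds, Hsd17b13, Aldh1b1, Ctsc) over pericentral genes (Cyp2e1, Oat, Cyp1a2, Glul, Gulo, Rgn), and the third of cells with the highest score, called periportal below, was set against the third with the lowest, called pericentral. Each is a range of the score and not a cell type, and 97 to 698 cells of a library lay within 0.5 of a limit. The 7 genes were lower in periportal cells at 24 h (median log2 −0.61, all genes −0.06) and 48 h (−0.59, all genes 0.07). There 4 of 7 genes were at least 1.5-fold lower at each time, beside 4.83% and 3.36% of all genes. The 24 h median was −0.35 when cells needed 3% of UMIs from Alb, Apoa1 and Ttr, and the 48 h median was −0.37 with cells thinned to 5000 UMIs and −1.13 with 10 to 20% mitochondrial UMIs. The sums of cholangiocyte and erythroid markers moved with the score, and few genes again carry the cholangiocyte sum. Summed cholangiocyte markers (7 genes) were at 182, 83.2 and 531 CPM in periportal and 23.0, 19.5 and 21.4 CPM in pericentral cells of 24, 48 and 96 h, and erythroid markers at 490.2, 689 and 252 against 692, 1035 and 469.6 CPM. In the control the cholangiocyte sums were 59.4 and 14.4 CPM and the erythroid sums 588 and 792 CPM, and in P14 they were 132 and 4.10 CPM and 73.2 and 99.3 CPM. Their part in the result was not tested. Hmgcs1 was at 938 CPM in periportal and 1557 CPM in pericentral cells at 24 h, and at 719 and 1246 CPM at 48 h. At 96 h the median was −0.20 (all genes −0.13), with 0 of 7 past 1.5-fold beside 9.08% of genes lower, and it was −0.067 with TMM scaling and −0.35 with 5 to 50% mitochondrial UMIs. Sqle was higher in periportal cells (152 against 109 CPM) and Hmgcs1 was lower (788 against 1075 CPM), so the genes did not share a direction. In P14 the median was −0.29 (all genes 0.03). All 7 genes were below 0 there, as at 24 h and 48 h, though only 4 of them reached 20 CPM. In the control the median was 0.26 (all genes −0.07), with 6 of 7 genes above 0. Sqle was at 99.9 CPM in periportal and 64.97 CPM in pericentral control cells, the 1 of 7 past 1.5-fold beside 2.95% of genes higher. The control median became −0.17 when cells needed 3% of UMIs from Alb, Apoa1 and Ttr, with 137 cells at each end.

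**Figure D5:**
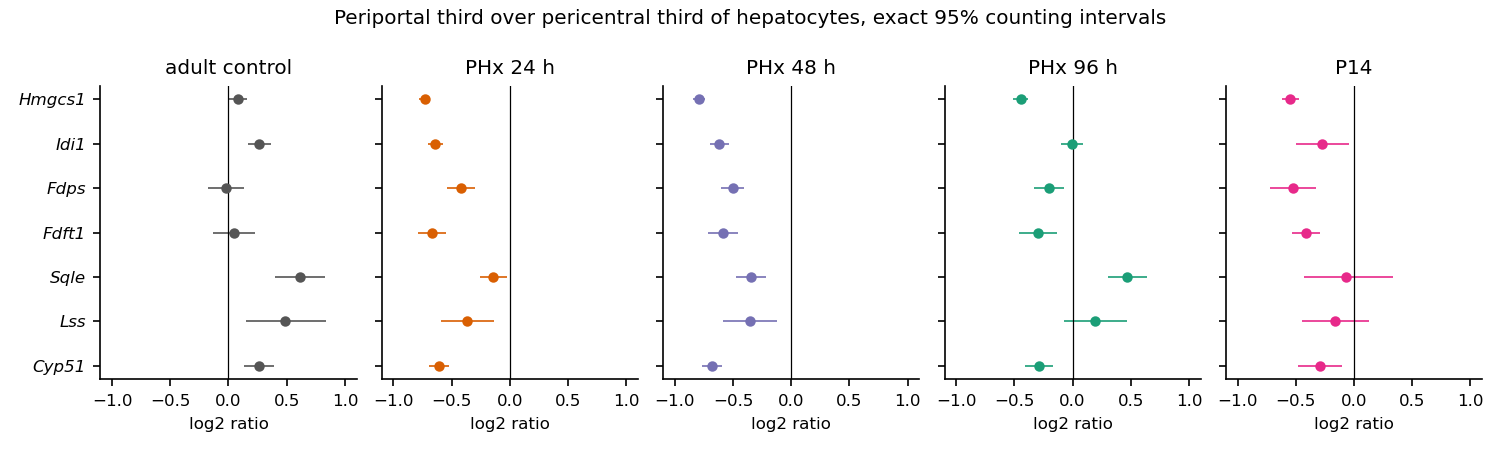
log2 ratio of periportal over pericentral hepatocytes (x axis, on CPM + 1) for each gene (rows) in 5 libraries (panels), with exact 95% counting intervals as lines. At 24 h, at 48 h and in P14 all 7 points lie left of 0, while Sqle lies to the right in the control (0.61) and at 96 h (0.47).

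Dividing cells were unevenly spread, making up 20.3% of periportal and 37.7% of pericentral cells at 24 h, 57.5% and 44.6% at 48 h, and 4.67% and 33.9% at 96 h. Among non-dividing cells only, the periportal over pericentral medians were −0.73, −0.43 and −0.30. Conversely, dividing cells stayed below non-dividing cells among pericentral cells, at −0.46, −0.68 and −0.80 for 24 h, 48 h and 96 h, and among periportal cells at 24 h (−0.33) and 48 h (−0.92). The periportal cells of 96 h had too few dividing cells for a value. These splits were added after seeing the data.

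Outside hepatocytes the genes were measured in barcodes of at least 1000 UMIs and under 10% mitochondrial UMIs that carried at least 3 markers of 1 class. The 7 genes summed to 106 CPM (84.2 to 133) in 75 T or NK barcodes of P14 and 578 CPM in 618 of the control. The 24, 48 and 96 h libraries gave 633 CPM (227 barcodes), 233 CPM (418) and 464 CPM (196). Hepatocytes were above these by 2.49-fold in P14, 2.63-fold in the control and 4.40-fold, 8.96-fold and 4.52-fold after PHx. These folds are uncorrected. With free RNA taken off, the T or NK values were 98.3 CPM in P14, 149.99 CPM in the control and 343, 126 and 271 CPM at 24, 48 and 96 h, so the control fell most. The sums did not hold for each gene. Before that correction, Fdps was at 31.0 CPM in T or NK barcodes of P14 and 17.3 CPM in its hepatocytes. At 24 h these values were 201 and 162 CPM. Idi1 and Sqle in P14 were at 14.8 and 4.04 CPM in T or NK barcodes, from 11 and 3 UMIs. In hepatocytes they were at 12.7 and 2.63 CPM. The other genes in P14, and all but Fdps in the adult libraries, were lower in T or NK barcodes. So was Fdps in the control, 48 h and 96 h. In 91 B barcodes of P14, Fdps (40.1 CPM), Idi1 (24.4 CPM) and Sqle (7.86 CPM, 10 UMIs) were also above the hepatocyte values. Cyp51 was at 21.2 CPM (14.0 to 30.9) there and 18.4 CPM in hepatocytes, while Hmgcs1, Fdft1 and Lss were lower in B barcodes. Not every class and library measured is described here. Monocyte, macrophage or dendritic barcodes stood closer to hepatocytes at 48 h, at 1456 CPM (1340 to 1578) in 38 barcodes, than at 24 h (648 CPM in 34) or 96 h (755 CPM in 36). Fdps was at 580 CPM in those of 48 h and 235 CPM in hepatocytes. Each other gene of the 7 was lower there than in hepatocytes, with Hmgcs1 at 280 against 907 CPM. Erythroid barcodes stood at 1364 CPM at 24 h, 1163 at 48 h and 1217 at 96 h. Of these sums Fdps made up 530, 559 and 486 CPM, where hepatocytes held 162, 235 and 222 CPM. Each other gene of the 7 was lower than in hepatocytes, with Cyp51 at 47.6, 26.8 and 36.7 against 362, 299 and 247 CPM. Endothelial barcodes of the control, 24 h and 96 h, with median depths of 1682, 1645 and 1461 UMIs, and the erythroid barcodes of the control, at 1392 UMIs against 1328 UMIs of free RNA per droplet, were too close to free RNA to be read. Those of 48 h were deep enough, at a median of 5713.5 UMIs, and held 802 CPM of the 7 genes in 44 barcodes, or 725 CPM with free RNA taken off. In P14 the 26 endothelial barcodes held 91.8 CPM.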

How the data were processed

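Libraries were made with the 10x v3 kit and sequenced on an Illumina NovaSeq, per the labels' protocols. The authors deposited whole-number UMI counts per gene and barcode, not normalized, for 6794880 barcodes per library, written by software version 3.0.2 per the file headers. The submitters' processing notes name Cell Ranger, bcl2fastq 2.17.1.14, Seurat 3.1 and mm10. Counting parameters are not given in the sources used here.

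From these counts, sums per library and cell group were scaled to CPM without mitochondrial genes (numpy 2.4.6, scipy 1.17.1). Ratios are log2 of (CPM + 1), with exact Poisson or conditional binomial 95% intervals for counting error only. UMIs mark molecules, but libraries were not replicated and no p-value was computed. A gene counted as higher or lower at 1.5-fold with at least 20 CPM in either group. Doublets were not removed. Scrublet in scanpy 1.11.5 called between 0 and 9 barcodes a library. Whether so few calls were right was not tested, and the alternative removed the highest 8% of its scores instead. Free RNA is the mean over barcode ranks 20001 to 60000. The ratio script was tested on simulated data.

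The genes named are the 7 members, fixed genes of uptake and regulation (Srebf2, Srebf1, Insig1, Stard4 and Cyp7a1), up to 4 genes with the largest rise and 4 with the largest fall per list and comparison past the threshold, and the 10 genes most like the members. Lbr in P14, Sc5d, Tm7sf2 and single values below the threshold were named after their values were seen. The members and the lists were chosen with earlier results of these data known. Hepatocyte rules, division and zone calls, scaling, pseudocount, depth and doublets were varied. Some genes of these lists enter the list counts but are not reported here by name.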

Additional observations from a re-analysis of the deposited data

Results flagged for a closer look

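Hmgcs1 and Idi1 were higher in dividing than in non-dividing hepatocytes of P14, at log2 0.30 (0.24 to 0.36) and 0.51 (0.32 to 0.71), and lower in dividing cells of all 3 operated libraries, with no counting interval reaching 0. Idi1 stood at 16.4 CPM in dividing and 11.2 CPM in non-dividing cells of P14, below the 20 CPM minimum. With levels thinned to 5000 UMIs and division called at full depth, Idi1 was at −0.030 (−0.68 to 0.61) in P14 and Hmgcs1 at 0.37 (0.20 to 0.54). The difference between P14 and the operated libraries was not tested.

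Hmgcs1 and Cyp51 were higher in periportal than in pericentral hepatocytes of the control, at log2 0.083 (0.0033 to 0.16) and 0.26 (0.13 to 0.39), and lower there in all 3 operated libraries (Hmgcs1 −0.73, −0.79 and −0.45, Cyp51 −0.61, −0.68 and −0.29). In P14, which had no operation, all 7 genes were below 0 in this comparison too. Both control values changed sign when cells needed 3% of UMIs from Alb, Apoa1 and Ttr. The difference was not tested.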

How the results depend on the processing

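No paired analysis was possible because each group has 1 library, and for the same reason no replicate could be left out. With 10 to 20% mitochondrial UMIs (53 to 933 cells a library) the medians over the control were 0.29 at 48 h, 0.65 at 96 h and −3.15 in P14, dividing over non-dividing −0.21 at 24 h and −0.997 at 48 h, and periportal over pericentral −0.72 and −1.13. The median of 96 h over 48 h became 0.29, Fdps there 0.20, Cyp51 0.038 in dividing cells of 24 h and −0.021 for periportal over pericentral control cells. At 96 h this setting left too few dividing cells for a value. With 5 to 50% the medians were 0.39 at 96 h, −3.11 in P14, −0.32 for dividing cells of 24 h, −0.43 and −0.35 for the zones of 48 h and 96 h, and Idi1 at 48 h was 0.063.

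With at least 3% of UMIs from Alb, Apoa1 and Ttr the medians were 0.56, 0.27, 0.28 and −3.17 for 24 h, 48 h, 96 h and P14, 0.042 for 96 h over 48 h, −0.16 for dividing cells of 24 h (Cyp51 0.16), −0.35 for the zones of 24 h and −0.17 for those of the control (Hmgcs1 −0.13, Idi1 −0.039, Sqle −0.18, Lss −0.20, Cyp51 −0.17). The cause was not tested. TMM gave 0.53 at 48 h (Idi1 0.014), −2.72 in P14, −0.45, −1.001 and −0.67 for dividing cells of 24 h, 48 h and 96 h, and −0.067 for the zones of 96 h. A pseudocount of 10 CPM gave −2.51 in P14, CPM over all UMIs −2.89 and free RNA taken off −2.64. Means of CPM per cell gave 0.54 at 48 h (Idi1 0.11), −3.11 in P14 and −0.32 for dividing cells of 24 h.

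With everything thinned to 5000 UMIs the medians were 0.89 at 24 h and 0.55 at 48 h (Idi1 0.15), −0.63 and −0.071 for dividing cells of 48 h and 96 h (Fdps 0.048, Fdft1 0.030, Cyp51 0.40 at 96 h), and −0.37 and 0.096 for the zones of 48 h and the control. With levels thinned and division called at full depth the P14 median was −0.012 and Idi1 −0.030. Dividing cells by 2 UMIs of Mki67 and Top2a gave −0.52 at 24 h, by 3 mitosis genes −0.54 at 24 h and −0.71 at 96 h, and by matching on depth −0.27 at 24 h and −0.72 at 48 h. Among pericentral cells they gave −0.46, −0.68 and −0.80, and among periportal cells Cyp51 at 24 h was 0.041. Among non-dividing cells the zones gave −0.73 at 24 h and −0.43 at 48 h, and a score cut into 5 parts gave −0.72 at 48 h.

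Counts of members past the threshold moved by over 1.5 times in these cases and those given beside the results. At 2-fold they were 2 of 7 at 24 h, 0 at 48 h and 96 h, and 3 and 0 for dividing cells of 48 h and 96 h, where 8.10%, 7.69%, 3.51%, 0.305% and 0.601% of all genes passed. At 48 h over the control the count was 1 with 10 to 20% mitochondrial UMIs (all genes 19.2%). At 96 h it was 4 with 10 to 20% mitochondrial UMIs (15.8%) and 1 with 5 to 50%, with TMM and with means per cell (10.6% to 11.9%). For dividing cells of 24 h, where the count was 0, it was 1 with TMM, doublet removal or among pericentral cells (all genes 0.384% to 0.848%), 2 with thinning (3.01%) and 2 with either stricter call of division (1.32% and 1.37%). For dividing cells of 96 h it was 6 with TMM (7.31%) or among pericentral cells (2.33%) and 5 with 3 mitosis genes (4.64%). The 48 h over 24 h count of 2 lower genes was 1 with either mitochondrial range, TMM, means per cell, thinning or doublet removal (7.35% to 11.3%) and 0 at 2-fold (2.31%), and 1 gene was higher with free RNA taken off (5.03%) or doublets removed (4.65%). For 96 h over 48 h, 1 gene was higher with 10 to 20% mitochondrial UMIs (16.4%). A median was given the counting interval of the gene that stood at the median of the 7. The median of 48 h over 24 h ran from −0.51 to −0.30 and that of 96 h over 48 h from −0.12 to 0.29, and 5 and 4 of 11 alternatives left them within those intervals. Over all comparisons 58 medians moved outside that interval, 4 changed sign and 134 did neither, and 33 counts moved by over 1.5 times and 271 did not. Of the values of single members, 380 moved outside their interval and 974 did not. A further 18, whose interval had excluded 0, changed sign. Among the library sums, counts were lowest for Sqle in P14 (170 UMIs) and for Lss in the control (429 UMIs) and P14 (447 UMIs). Parts of a library, such as its dividing cells, hold fewer UMIs.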

Other observations

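Fatty acid synthesis genes, which SREBP1 rather than SREBP2 is known to favour, were read beside the cholesterol genes, and a difference between the lists was not tested. Of 13 such genes with at least 20 CPM, 0 were at least 1.5-fold higher and 6 lower than the control at 24 h (median log2 −0.52), 0 and 10 at 48 h (−0.87), and 1 and 2 at 96 h (−0.01). Over all genes 19.5% were higher and 18% lower at 24 h, 17.3% and 21.4% at 48 h, and 12.2% and 7.16% at 96 h. One large difference was that of Thrsp (488 CPM in the control and 103, 61.2 and 279 CPM at 24, 48 and 96 h), a lipogenic nuclear protein. In P14, 9 of 13 were lower and 2 higher, beside 36.6% and 13.5% of all genes. Scd1 stood at 20.3 CPM in P14 and 2822 CPM in the control.

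Of the enzymes that use isoprenoids for other ends, such as dolichol synthesis and protein farnesylation, 0 of 5 were past 1.5-fold at 24 h and 48 h, 1 of 5 was lower at 96 h and 3 of 5 were lower in P14, beside the same shares of all genes. Of the genes that respond to tissue handling, 2 of 9 were higher and 3 lower at 24 h, 3 and 4 at 48 h, 3 and 3 at 96 h, and 0 and 5 in P14. The shares of all genes are those given above. Hspa1b, a heat shock gene, was at 52.3 CPM in the control and at most 19.5 CPM in the other 4 libraries, and its part in the results was not tested. Across the 5 libraries the genes whose levels ran most like the mean of the members were Aldh1a7, Sqle, Hamp, Twf1, Mvd, Slc3a1, As3mt, Cyp51, Wfdc21 and Lss. A member was not left out of this mean, so the places of Sqle, Cyp51 and Lss were partly set in advance. As there are only 5 points, 282 of 2681 genes had r over 0.95.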
